A study of Mus musculus with 11 samples.

Results

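Cells of the mouse embryonic stem (ES) cell line R1 after 4+11 days of differentiation were compared with the fibroblast feeder cells on which such ES cells are grown. The comparison took every array titled 4+11 days (3 arrays, replicates 4, 8 and 12) and every array titled feeder layer (2 arrays, replicates 6 and 10), which are 5 of the 11 arrays of the study. RNA levels were read on the Affymetrix MG_U74Av2 GeneChip, a mouse array on which short probes are grouped into probe sets that each stand for a transcript. The other 6 arrays were 3 of undifferentiated R1 cells and 3 of R1 cells after 4+8 days. They entered the normalisation, the filter, the choice of probe set for each gene and the estimate of the spread. Beyond that they are quoted as reference levels only.

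The 4+11 day cells are R1 progeny that the submitters describe as positive for nestin, an intermediate filament protein, and as including neural progenitors. No cell sort and no treatment beyond the differentiation protocol is named in the labels, so each array holds whatever mixture the culture contained. The feeder cells are embryonic mouse fibroblasts. Their strain, passage and any growth arrest are not given in the sources used here. R1 cultures are described as 3 independent ones, whereas the labels leave unsaid whether the feeder RNA of both arrays has 1 origin, in which case p-values measure technical spread only on that side. Feeder replicate 10 carries the ES cell line as its source name and the feeder layer as its title. The title was used. Its values had a Spearman correlation of 0.969 with feeder replicate 6, and Pou5f1, the ES cell transcription factor Oct4, stood at an intensity of 6.89 on it, against 2166 ± 538 (SD, n = 3) in undifferentiated cells. Results without this array are given below.

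Embryonic fibroblasts secrete collagen, elastic fibre proteins, proteoglycans and matrix-modifying enzymes, and they release chemokines and cytokines when activated. Differentiating ES cell cultures form derivatives of all germ layers side by side, among them beating heart muscle cells, epithelia, blood and vessel cells and neural cells. Hox genes encode transcription factors that mark position along the body and limb axes and are kept active in fibroblasts according to the site of the body they came from.

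Intensities below are quantile normalised and have no unit, and each is compared only within its own gene. Marker sums are the exception, and bright genes weigh most in them. Differences are 4+11 day cells minus feeder cells on the scale log2(intensity + 8), with their SE, and understate the change of dim genes. Adjusted p-values are from limma with Benjamini-Hochberg adjustment over 8940 probe sets, and a gene was called higher or lower at an adjusted p below 0.05. Of 6650 genes, 209 were called (3.14%), 83 of them higher in 4+11 day cells (1.25%) and 126 lower (1.89%). At an unadjusted limma p below 0.05 the share in either direction was 15.8%. The counts for each gene list below stand beside these shares. Of the 12422 probe sets that are not controls, 8940 passed a filter on dim signals. In all 209 the 3 arrays of one group did not overlap the 2 of the other, as was the case for 40.7% of all genes tested. The median difference over all 6650 genes was 0.018. The called genes had a median difference of 1.52 when higher and -2.13 when lower. Differences beyond 2 on the log2 scale were found for 24 of the higher and 73 of the lower genes. In a bulk sample, fewer cells of a type and less RNA per cell cannot be told apart.

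**Figure D1:**
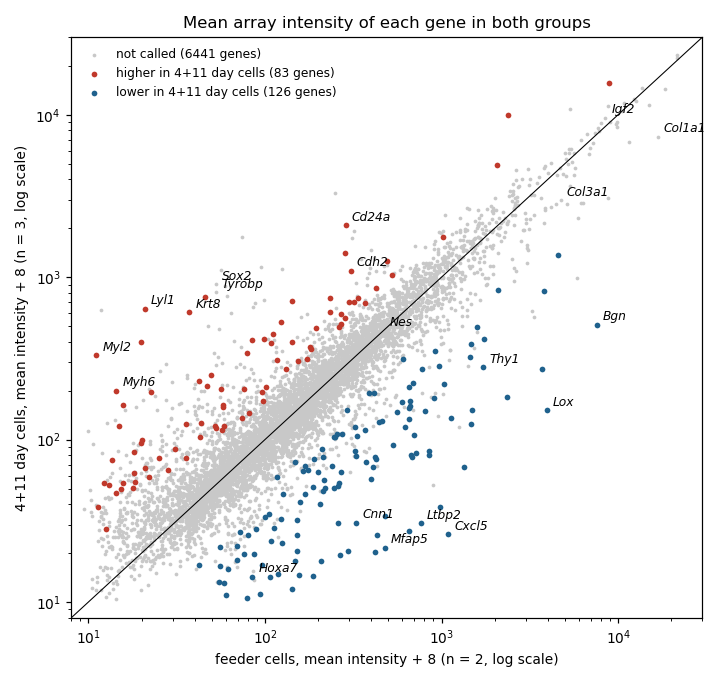
Each point is 1 of 6650 genes, with the mean intensity + 8 in feeder cells (n = 2) on the x axis and in 4+11 day cells (n = 3) on the y axis, both on a log scale, and a line of equal level. The 83 genes called higher are red, the 126 called lower are blue, and grey genes were not called. Bgn, Lox and Cxcl5 lie far below the line and Myl2 and Lyl1 far above it, while Nes and Igf2 lie close to it.

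The 5 arrays shared 1 scan session and 1 chip lot and lay in 3 fluidics runs, the washing and staining steps. The runs are not labelled and were inferred here from gaps between the recorded hybridisation times. 4+11 day replicate 4 shared run 1 with feeder replicate 6, and 4+11 day replicate 8 shared run 2 with feeder replicate 10. 4+11 day replicate 12 was alone among the 5 in run 3 and was washed under another protocol. Trimmed mean intensities as deposited were 127.8 to 160.2. The 3′ to 5′ signal ratio of the actin control probes, a sign of RNA integrity, was 1.49 to 1.84 in 4+11 day cells and 1.47 and 1.63 in feeder cells. The 3 4+11 day arrays were less alike than the feeder arrays: the Spearman correlation was 0.958 between replicates 4 and 12, 0.929 between 4 and 8 and 0.882 between 8 and 12. Replicate 8 was the array farthest from its group mean in 44.0% of probe sets. The number of calls depended on single arrays. Without feeder replicate 10, 6 probe sets were higher and 41 lower, and without feeder replicate 6 there were 17 and 63, against 101 (1.13%) and 161 (1.8%), or 262 in all (2.93%), of 8940 with all arrays. Without 4+11 day replicate 4 there were 36 and 99. Of the calls with all arrays 38.5% were higher, and 25.3% were with the intensities as deposited. Only the 8 arrays of this scan session gave 345 probe sets higher and 455 lower. The same 8 arrays with the fluidics run as a block gave 272 and 344, and there the run term takes up replicate 12. Only the 5 arrays compared gave 96 and 194, of which 57 and 123 were among the calls with all arrays.

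Genes of the extracellular matrix made up 7 of the 15 largest falls. Of 31 tested genes for collagens and elastic fibres, 9 were lower and 0 higher, and the median difference of the 31 was -1.20. Lox, the lysyl oxidase that cross-links collagen and elastin, had intensities of 253, 74.7 and 102 in 4+11 day replicates 4, 8 and 12 and of 4129 and 3757 in feeder replicates 6 and 10. The highest differentiated array thus lay far below the lower feeder array. The difference was -4.89 ± 0.89 (SE; adjusted p = 0.018). Mfap5, a glycoprotein of elastin-associated microfibrils, read 13.8, 11 and 16.2 against 401 and 537, a difference of -4.45 ± 0.26 (adjusted p = 7.65e-05). The arrays of each group lay close together for this gene, which had the smallest adjusted p of those named here, although a second and dimmer probe set for it gave -0.60 ± 0.50. Ltbp2, a latent TGF-beta binding protein of microfibrils, read 22, 23.3 and 22.6 against 591 and 920.0 (-4.61 ± 0.50, adjusted p = 0.00139). Elastin itself (Eln) was lower by a difference of -3.34 ± 0.75 (adjusted p = 0.0434), with 107, 43.2 and 81.3 against 1053 and 623. This call was lost without any single one of the 5 arrays (adjusted p of 0.0852 to 0.291), and a second probe set was not called (-2.17 ± 0.54, adjusted p = 0.0624).

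The collagen genes Col8a1 (-3.22), Col11a1 (-2.57) and Col6a2 (-1.71) were also lower, as were Pcolce (-1.95) and Bmp1 (-1.68), which take part in trimming procollagen. Transcripts of collagens I and III were not called. Col1a1 read 9853, 5311 and 6747 in 4+11 day cells and 16256 and 17256 in feeder cells, without overlap, yet its difference of -1.24 ± 0.59 had an adjusted p of 0.349 and a 95% confidence interval of -2.55 to 0.06. Its SE also reflects the 4+8 day arrays of another scan session, at 9154 ± 5847 (SD, n = 3). The SD was 2322 in 4+11 day cells and 707 in feeder cells. Col1a2 differed by -1.57 ± 0.51 (adjusted p = 0.157; 0.0365 with only the 8 arrays of this scan session), and a second probe set by -0.11. For Col3a1 the difference was -0.72 ± 0.35 (adjusted p = 0.367). Without feeder replicate 10, and also without feeder replicate 6, 3 of the 31 genes were called, against 16 with only the 8 arrays of this scan session. Within fluidics run 1 the list's median was -0.87 and within run 2 it was -1.48.

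Small proteoglycans and matricellular proteins, which decorate the matrix or signal from it, fell alongside, with 7 of 31 lower, 0 higher and a median of -0.86. Biglycan (Bgn) stood at 489.7, 504 and 509 in 4+11 day cells and at 7072 and 8008 in feeder cells. The difference was -3.89 ± 0.35 (adjusted p = 0.000727), and a second probe set was lower too, by a difference of -1.77 ± 0.33 (adjusted p = 0.0199). Fibromodulin (Fmod), which binds collagen fibrils, read 25.9, 23 and 5.19 against 363 and 486, a difference of -4.16 ± 0.48 (adjusted p = 0.00161), while a dim second probe set gave -0.61 ± 0.50. Thrombospondin 2 (Thbs2) was at 60.3, 81.1 and 38.3 against 1251 and 1403 (-4.35 ± 0.51, adjusted p = 0.00181). The CCN family members Ccn3 and Ccn5, secreted regulators of growth and adhesion, were lower by differences of -4.92 and -3.55. For Ccn3 the arrays read 5.47, 5.53 and 46.8 against 683 and 611, so replicate 12 stood above the other 2 differentiated arrays. Postn, encoding periostin, was lower (-2.37 ± 0.52, adjusted p = 0.0425), a call lost without any single one of the 5 arrays (adjusted p of 0.0511 to 0.287). Decorin (Dcn; -0.17 ± 0.82, adjusted p = 0.966) and lumican (Lum; 0.40 ± 0.39, adjusted p = 0.736), both small proteoglycans, were not called and had overlapping or similar levels: Lum read 2080.2, 1512 and 1485 against 1268 and 1259.9. Leaving out feeder replicate 10 gave 4 lower genes of 31.

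**Figure D2:**
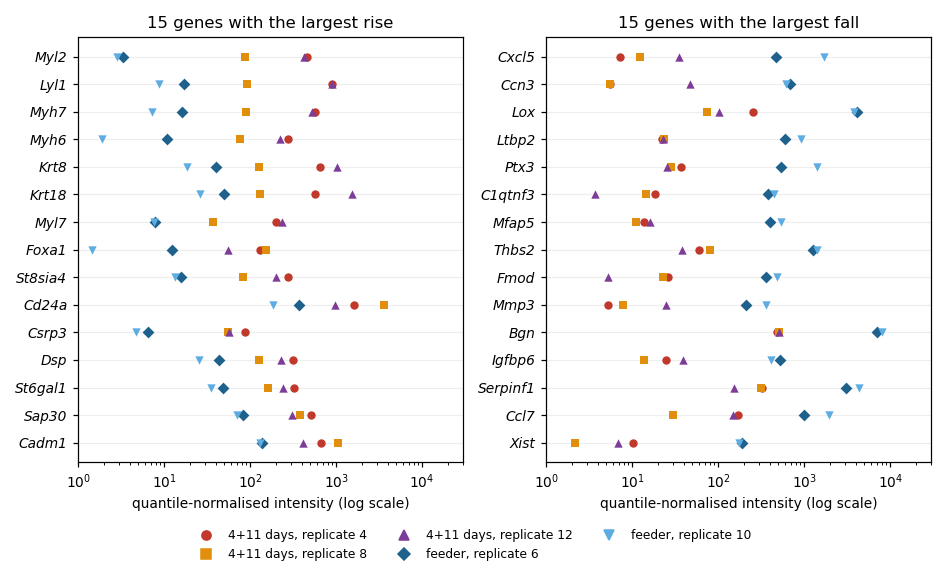
Quantile-normalised intensity (x axis, log scale) on each of the 5 arrays for the 15 genes called with the largest rise (left) and the 15 with the largest fall (right). Each marker is 1 array. In the left panel 4+11 day replicate 8 is often the lowest of its group, as for Myl2 at 87.9 against 454 and 424, whereas in the right panel the arrays of both groups lie well apart, as for Bgn.

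Of 25 tested fibroblast surface and mesenchyme markers, 4 were lower and 0 higher, with a median of -1.26. Ddr2, a collagen receptor kinase, was at 66.2, 60.2 and 66.5 against 372 and 361 (-2.37 ± 0.23, adjusted p = 0.000881), and kept its call without each array in turn. The receptors for platelet-derived growth factor were lower as well, Pdgfrb by a difference of -2.12 ± 0.29 (adjusted p = 0.00422) and Pdgfra by -1.39 ± 0.26 (adjusted p = 0.0196). A second, dim probe set for Pdgfra gave 0.32. Thy1, a cell surface glycoprotein of fibroblasts and neurons, read 217, 484 and 109 against 1116 and 2308 (-2.78 ± 0.60, adjusted p = 0.0389). Without feeder replicate 10, 1 of the 25 was called, and without feeder replicate 6 it was 2. Blocking on the run gave 10 lower, as did only the 8 arrays of this scan session.

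A set of 15 defining fibroblast markers, which holds the 4 genes just named, was used to check the feeder label. Their summed intensity was 41652 and 46822 in feeder cells and 27717, 16325 and 18817 in 4+11 day cells. Differentiated cultures thus had a lower sum on every array but no marker at 0. Col1a1, Col1a2 and Col3a1, none of them called, made up most of each sum. Of the 15, 5 were lower (Thy1, Postn, Ddr2, Pdgfrb and Pdgfra) and 0 higher. The remaining 10 include the collagens above, Fn1, Dcn and Lum, and also S100a4, which read 1118, 183 and 1832 against 1192 and 2188 and overlapped between groups. How much of the differentiated cultures' matrix signal comes from fibroblast-type cells was not tested.

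**Figure D3:**
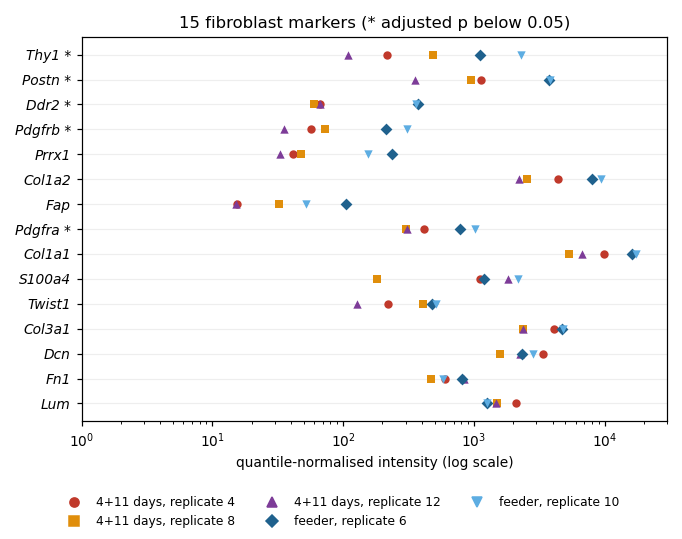
Quantile-normalised intensity (x axis, log scale) of the 15 fibroblast markers on each of the 5 arrays, ordered by the log2 difference, with an asterisk for the 5 called lower. Thy1 and Postn at the top separate the groups, and Twist1, not called, lies lower in the differentiated arrays without overlap. The groups overlap for Dcn and Fn1, and Lum lies slightly higher in the differentiated arrays.

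Genes of smooth muscle contraction, which activated fibroblasts also express, were lower in 8 of 21 cases and higher in 0, with a median of -1.12. Calponin (Cnn1) read 24, 23.8 and 20.5 against 367 and 275, a difference of -3.41 ± 0.42 (adjusted p = 0.00292). Smooth muscle myosin heavy chain (Myh11) read 1.52, 2.35 and 5.58 against 93.3 and 78.5 (-3.09 ± 0.26, adjusted p = 0.000388). The myosin light chain kinase Mylk was at 147, 130.0 and 103 against 729.8 and 569.6 (-2.29 ± 0.24, adjusted p = 0.00114). These 3 kept their calls without each array in turn. Smtn (-2.17), Actg2 (-2.36), Tagln (-1.78) and Pdlim1 (-1.12), encoding smoothelin, smooth muscle gamma-actin, transgelin and a cytoskeletal adaptor, were lower too. The eighth was Pdgfrb, described above. Smooth muscle alpha-actin (Acta2), the usual marker of activated fibroblasts, differed by -1.54 ± 0.48 and was not called (adjusted p = 0.139), but passed when the fluidics run was a block (-0.99, adjusted p = 0.048). It read 3534, 2471 and 927 against 6463 and 5311. Leaving out feeder replicate 10 gave 4 lower genes of 21.

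Secreted immune signals formed another group of low genes, with 8 of 33 chemokines, cytokines and related receptors lower, 1 higher and a median of -1.0. Cxcl5, which attracts neutrophils, had the largest fall of all genes called, -5.25 ± 0.66 (adjusted p = 0.00292), from 473 and 1687 in feeder cells to 7.26, 12.2 and 34.9. Ptx3, a soluble pattern recognition protein, read 37.1, 28.3 and 25.2 against 531 and 1416 (-4.53 ± 0.44, adjusted p = 0.000881). Both feeder arrays were above every differentiated array for these genes, although the feeder arrays themselves differed several-fold. Ccl7, which attracts monocytes, differed by -3.76 ± 0.86 (adjusted p = 0.0493), and lost its call without any single one of the 5 arrays (adjusted p of 0.0717 to 0.376). Cxcl14 (-1.89) and Ccl11 (-2.38) were lower, and so was Tnfrsf11b (-2.56), the decoy receptor osteoprotegerin. Receptor chains of the interleukin 6 family were lower as well: Il6st, the shared signal transducer, by -2.33 ± 0.33 (adjusted p = 0.00526) and Osmr, the oncostatin M receptor, by -2.76 ± 0.56 (adjusted p = 0.0279). The call of Osmr was also lost without any single one of the 5 arrays (adjusted p of 0.0503 to 0.23). Ccl25 was the single member called higher (1.21 ± 0.27, adjusted p = 0.0433). The neutrophil attractant Cxcl1 was not called on its brighter probe set, which read 42.4, 21.4 and 69.1 against 404 and 1371 (-3.96 ± 0.97, adjusted p = 0.0608), but passed on a dimmer one (-4.16 ± 0.95, adjusted p = 0.0475). The brighter one passed in 8 of the 11 alternatives that kept every array (adjusted p of 0.018 to 0.0483). With feeder replicate 10 left out, 3 chemokine and cytokine genes were lower and 0 higher, and 13 were lower when blocking on the run.

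Proteases and their inhibitors were lower in 4 of 28 cases and higher in 0 (median -0.23). Stromelysin 1 (Mmp3), which degrades matrix proteins, read 5.17, 7.72 and 24.6 against 213 and 361 (-3.92 ± 0.55, adjusted p = 0.00496). Undifferentiated cells, grown on the feeder layer, stood at 1541 ± 821 (SD, n = 3) for Mmp3, above both feeder arrays. The collagenase Mmp13 (-1.93), Serpinf1 (-3.82), which encodes the secreted anti-angiogenic protein PEDF, and the serine protease inhibitor Tfpi2 (-3.54) were the others. Serpinf1 read 323, 318 and 154 against 3074 and 4328, while a second and dim probe set gave -0.56 ± 0.44 (adjusted p = 0.659). The basement membrane chain Lama4 was at 58.6, 97.3 and 69.5 against 699 and 726 (-3.14 ± 0.25, adjusted p = 0.000289), the only call among 16 basement membrane genes. Serpinf1, Tfpi2 and Lama4 kept their calls without each array in turn, whereas Mmp3 lost its call without feeder replicate 10 (adjusted p = 0.0878).

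Growth factor and signalling lists contributed few calls each. Over all genes tested 3.14% were called, so counts of 1 or 2 say little about a family. Fgf7, a fibroblast-derived growth factor for epithelium, read 10.7, 11.1 and 7.97 against 140.0 and 259 (-3.48 ± 0.44, adjusted p = 0.00309), and was 1 of 26 growth factors and receptors called. Igfbp6, an insulin-like growth factor binding protein, was the only call of 10 in its axis (-3.88 ± 0.44, adjusted p = 0.00152). Igf2 itself was at 9268, 9268 and 10278 against 9726 and 7150.2, a difference of 0.20 ± 0.42 with an interval of -0.73 to 1.14. The Wnt inhibitor gene Sfrp2 (-2.91 ± 0.47, adjusted p = 0.0103) was the only call among 27 Wnt pathway genes, and Tgfb3 (-1.82) and the receptor Bmpr2 (-1.93) were the 2 among 31 TGF-beta and BMP genes. C1qtnf3, a secreted protein related to complement C1q, was at 18.3, 14.5 and 3.72 against 377 and 449 (-4.46 ± 0.35, adjusted p = 0.000289). Of 28 redox and detoxification genes 4 were lower, beside 1.89% of all genes tested. The 4 were Gstm2 (-2.82), Sod3 (-2.11), Gstm5 (-1.53) and Mgst1 (-1.23). A second probe set of Gstm2 gave -0.47 (adjusted p = 0.665). Other probe sets of Gstm5 gave -2.03 (adjusted p = 0.00739) and 0.60 (adjusted p = 0.726). The block ended the call of Sod3 (adjusted p = 0.0607). Of 42 MHC class I and interferon response genes, whose median was -0.91, 2 were lower, the class I gene H2-K1 (-2.12 ± 0.42, adjusted p = 0.0256) and the interferon-induced GTPase gene Gbp2 (-3.42 ± 0.64, adjusted p = 0.0199). Other probe sets of H2-K1 gave -1.81 (adjusted p = 0.205) and -0.22 (adjusted p = 0.914). On the MHC and interferon list, 14 genes were lower with only the 8 arrays of this scan session and 11 when blocking on the run. At an unadjusted limma p below 0.05, 13 of the 42 were lower and 0 higher, beside 15.8% of all genes tested in either direction. Both calls named were lost without feeder replicate 6 and without feeder replicate 10. The calls of Fgf7 (adjusted p = 0.0589), Sfrp2 (0.124), Tgfb3, Bmpr2, Sod3, Gstm5 and Mgst1 were lost without feeder replicate 10 as well, while Igfbp6, C1qtnf3 and Gstm2 kept theirs without each array in turn.

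Positional transcription factors were low in the differentiated cells. Of 22 tested Hox genes 6 were lower and 0 higher, with a median of -0.63. The 6 lie in the clusters on chromosome 6 (Hoxa5, Hoxa7 and Hoxa9) and chromosome 2 (Hoxd8, Hoxd10 and Hoxd11). The array holds 31 Hox genes, and Hoxa7 and Hoxd11 passed the filter on dim signals through the 2 feeder arrays only. The count and median of this list thus partly follow from the filter. Hoxa7 read 7.41, 4.95 and 6.61 against 84.9 and 68.6, a difference of -2.56 ± 0.20 (adjusted p = 0.000289). Hoxd8 read 61.3, 55 and 53.3 against 150.1 and 164 (-1.36 ± 0.18, adjusted p = 0.00394). Hoxd11 read 5.17, 4.95 and 5.41 against 58.6 and 43.1 (-2.15 ± 0.40, adjusted p = 0.0199). Apart from Hoxd8, the differentiated arrays read at most 16.6 for these 6 genes, near the bottom of the scale, where differences are understated. The homeobox and T-box factors of mesenchyme Meox2 (-2.92 ± 0.22, adjusted p = 0.000289), Tbx15 (-3.09 ± 0.31, adjusted p = 0.000881) and Prrx2 (-2.58 ± 0.36, adjusted p = 0.0044) were lower too, and so was Snai1 (-1.42), a repressor active in epithelial to mesenchymal transition. A second probe set of Tbx15 gave -1.33 (adjusted p = 0.0979). Within the same list of 32 mesoderm and mesenchyme factors, Eya2 (1.45) and Zfpm1 (1.26) were higher. They encode a transcriptional coactivator and a partner of GATA factors. Eya2 lost its call without any single one of the 5 arrays (adjusted p of 0.0707 to 0.334) and with the run as a block (0.0531). Without feeder replicate 6, and also without feeder replicate 10, 2 Hox genes were called. With the run as a block Hoxd11 (adjusted p = 0.0524) and Hoxa5 (0.0574) lost their calls, and Hoxa5 did so without any single one of the 5 arrays (adjusted p of 0.0565 to 0.275). Meox2 and Tbx15 kept their calls without each array in turn, and Prrx2 lost its call without feeder replicate 6 (adjusted p = 0.0612).

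Heart muscle genes gave the most calls among the groups that were higher in the 4+11 day cells. Of 40 tested cardiac and skeletal muscle genes 6 were higher and 0 lower, and the median was 0.23. The ventricular regulatory light chain Myl2 had the largest rise of all genes called, at 454, 87.9 and 424 against 3.35 and 2.87, a difference of 4.59 ± 0.73 (adjusted p = 0.00936). The cardiac myosin heavy chain Myh6 was at 274, 76.2 and 225 against 10.9 and 1.88 (3.69 ± 0.63, adjusted p = 0.0133). Replicate 8 was the lowest differentiated array in both cases but still stood above both feeder arrays. The atrial light chain Myl7 read 198, 37.3 and 233 against 7.77 and 7.55 (3.06 ± 0.68, adjusted p = 0.0425), a call lost with the run as a block (adjusted p = 0.0887). Myh7, the slow and cardiac heavy chain, was higher by 4.01 ± 0.69 on one probe set (adjusted p = 0.0138), whereas a second gave 0.11 ± 0.44 (adjusted p = 0.962). Myh6 and Myh7 are near-identical genes, and cross-hybridisation between them was not tested. Csrp3 (2.44 ± 0.41, adjusted p = 0.0119), a protein of the sarcomere's Z-disc, and Slc8a1 (1.79 ± 0.34, adjusted p = 0.0207), the sodium-calcium exchanger, completed the 6.

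Sarcomere genes without a call had differences of either sign. Cardiac troponin T (Tnnt2) differed by 2.06 ± 0.53 (adjusted p = 0.0745; 0.0236 with only the 8 arrays of this scan session) and the light chain Myl3 by 3.21 (adjusted p = 0.0514). The skeletal genes Acta1, an actin (-1.75, adjusted p = 0.0852), and Myl1, a light chain (-1.33, adjusted p = 0.127), had both feeder arrays above all 3 differentiated arrays. At an unadjusted limma p below 0.05, 14 of the 40 genes were higher and 3 lower, beside 15.8% of all genes tested in either direction. Nppa, the atrial natriuretic peptide gene, did not differ detectably (0.16 ± 0.28, interval -0.47 to 0.79). For cardiac actin, Actc1, the brighter probe set gave 0.29 ± 0.48 and the dimmer one 2.67 ± 0.79 (adjusted p = 0.115). Feeder replicate 6 read 1380.4 on the brighter one, inside the range of the differentiated arrays. Without feeder replicate 6, and also without feeder replicate 10, 0 cardiac genes were called (Myl2 then had adjusted p-values of 0.0782 and 0.103), while 12 were called without 4+11 day replicate 8. In the 4+8 day cells, measured in another scan session, Myl7 stood at 1607 ± 542 and Myh6 at 889 ± 547 (SD, n = 3), and group and session cannot be told apart there.

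Of the 6 called cardiac genes, 2 had AGATAA, a sequence recognised by GATA factors, in the 250 bases before the transcription start (both strands searched), against 11.4% of 27025 mouse genes. A CArG box, the site of serum response factor, was present in 1 of the 6, against 1.62% of genes. The promoters of both called light chain genes are shown here, 1 for each motif. Sequences are from RefSeq on build GRCm38.p6, read on the gene's strand and ending at the base before the start, with the motif in capitals. The Myl2 sequence (chr5:122092474-122092723, plus strand) holds AGATAA beginning 211 bases before the start, and the Myl7 sequence (chr11:5898783-5899032, minus strand) a CArG box beginning 61 bases before it. A match describes the letters only.
Myl2: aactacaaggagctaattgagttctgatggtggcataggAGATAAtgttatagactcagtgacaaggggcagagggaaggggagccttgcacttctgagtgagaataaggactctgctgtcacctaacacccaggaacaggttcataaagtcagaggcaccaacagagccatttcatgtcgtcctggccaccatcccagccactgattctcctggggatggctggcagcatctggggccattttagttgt
Myl7: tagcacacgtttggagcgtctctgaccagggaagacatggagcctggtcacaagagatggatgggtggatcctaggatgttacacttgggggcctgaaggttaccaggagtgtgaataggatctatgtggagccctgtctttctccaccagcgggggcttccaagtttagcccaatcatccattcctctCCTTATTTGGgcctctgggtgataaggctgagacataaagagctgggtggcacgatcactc

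Epithelial genes formed the second group with several rises, 4 of 31 being higher and 0 lower, with a median of 0.89. The keratins of simple epithelia Krt8 and Krt18, which pair in one filament, were higher together. Krt8 read 656, 128 and 1016 against 40.3 and 18.3 (3.67 ± 0.71, adjusted p = 0.0237), and Krt18 read 573, 129 and 1548 against 49.3 and 26.3 (3.49 ± 0.76, adjusted p = 0.0392). Desmoplakin (Dsp), which anchors filaments at desmosomes and is also a heart muscle junction protein, was at 315, 127 and 227 against 43.9 and 25.2 (2.39 ± 0.41, adjusted p = 0.0138). Cd24a, a surface protein of epithelia and neural precursors, was highest in replicate 8, with 1630.1, 3616 and 972 against 370.1 and 186 (2.73 ± 0.54, adjusted p = 0.0255). E-cadherin (Cdh1) differed by 0.19 ± 0.17 with an interval of -0.19 to 0.57, and Epcam by 1.79 ± 0.55 (adjusted p = 0.13). The other keratins tested from this list, Krt7 (0.98), Krt17 (-0.92) and Krt19 (0.84), and the desmosomal genes Dsg2 (0.91), Dsc2 (1.48) and Jup (0.13) were not called. Without feeder replicate 6 or 10, 0 epithelial genes were called (Krt8 then reached an adjusted p of up to 0.254), and without 4+11 day replicate 8 there were 8.

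N-cadherin (Cdh2), the adhesion molecule of neural and heart muscle cells, was at 1198, 1131 and 937 against 309 and 287, a difference of 1.83 ± 0.24 (adjusted p = 0.00322) that was much alike on all 3 arrays. Its adjusted p was 0.0589 without feeder replicate 10. In undifferentiated cells it stood at 92 ± 7.8 (SD, n = 3). Vessel and blood regulators were higher in a few cases, beside 1.25% of all genes tested. VE-cadherin (Cdh5) read 62.8, 58 and 108 against 15.3 and 5.12 (2.22 ± 0.32, adjusted p = 0.00526), and Emcn, encoding endomucin of vessel walls, was higher by 1.69 ± 0.27 (adjusted p = 0.0103). Thbd, thrombomodulin, was the 1 endothelial gene of 22 that was lower (-2.60 ± 0.45, adjusted p = 0.014). A second probe set of Thbd gave -1.51 (adjusted p = 0.164). Of 21 blood genes 2 were higher, both encoding factors of early blood and vessel development. Lyl1 was at 899, 92.5 and 899.6 against 17.1 and 8.75 (4.41 ± 0.98, adjusted p = 0.0433), and a second probe set gave 2.42 (adjusted p = 0.107). Lmo2 read 226, 139 and 229 against 50.9 and 45.5 (1.84 ± 0.31, adjusted p = 0.012), and a second probe set gave 1.75 (adjusted p = 0.179). The erythroid markers summed to 159, 120.0 and 140.2 against 141 and 136, so no difference in red cell genes was seen. Foxa1, a pioneer factor of endoderm, was the single call among 23 endoderm and liver genes, at 132, 153 and 55.8 against 12.4 and 1.47 (3.02 ± 0.58, adjusted p = 0.0235). Without feeder replicate 10, none of the 5 higher vessel, blood and endoderm genes was called, and without feeder replicate 6 only Cdh5 was.

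Among the remaining large rises, St8sia4 (2.96 ± 0.63) and St6gal1 (2.28 ± 0.38) encode sialyltransferases, the former making the polysialic acid carried by the neural adhesion molecule. A second probe set of St6gal1 gave 1.48 (adjusted p = 0.193). Sap30, a subunit of the Sin3 histone deacetylase complex, was at 515, 378 and 311 against 83.4 and 69.7 (2.25 ± 0.32, adjusted p = 0.00489). Cadm1 (2.24 ± 0.50) encodes an adhesion molecule of synapses and epithelia. Jarid2, a partner of Polycomb repressive complex 2 that is high in ES cells, read 451, 542 and 318 against 98.3 and 108 (1.97 ± 0.32, adjusted p = 0.0103) and stood at 1726 ± 486 in undifferentiated cells. It was the only call among 29 pluripotency genes, and Pou5f1 (0.07 ± 0.26), Nanog (0.04 ± 0.26) and Zfp42 (0.14 ± 0.20) were near the bottom of the scale in both groups. The glial list had 2 of 10 higher, beside 1.25% of all genes tested. Its median was -0.02, and 5 of the 10 had a positive difference. The 2 were Ckb (2.18 ± 0.48), a brain creatine kinase, and Mbp (1.26 ± 0.26), myelin basic protein. Ckb lost its call without any single 4+11 day array (adjusted p of 0.0538 to 0.0653), and Mbp without replicate 4 or 12 (0.0914 and 0.0843). Dusp6, a phosphatase that acts on ERK, was higher by 1.63 ± 0.37 (adjusted p = 0.0454). With feeder replicate 10 left out, none of the genes called in this group of rises was called (Sap30 then had an adjusted p of 0.0841).

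Nestin, the gene the differentiated cells are named for, did not separate them from the feeder cells. Nes read 397, 599 and 385 in 4+11 day cells and 573 and 351 in feeder cells, so the groups overlapped. The difference was 0.01 ± 0.35 (adjusted p = 0.996), with an interval of -0.78 to 0.79. Of 33 neural progenitor genes 1 was higher (Cdh2), and of 36 neuronal genes 0 were called by limma (7 at an unadjusted p below 0.05), each list having a median of 0.70. Of all genes tested, 3.14% were called and 15.8% had an unadjusted p below 0.05. Blocking on the fluidics run gave 7 neural progenitor and 11 neuronal genes higher. Sox2, a neural progenitor and ES cell factor, read 425, 2106 and 151 against 48.4 and 41. All 3 differentiated arrays were above both feeder arrays, and the difference of 3.32 ± 1.14 was not called (adjusted p = 0.179). It was called when blocking on the fluidics run (4.19, adjusted p = 0.0206), and also with only the 8 arrays of this scan session (3.51, adjusted p = 0.0468). Both fits hold the same 8 arrays, and the run term of the block fit takes up replicate 12. Without replicate 12 and without a block the difference was also 4.19 (adjusted p = 0.108). Fabp7, the brain fatty acid binding protein of radial glia, read 543, 4699.7 and 31.7 against 67.1 and 65.5, with replicate 12 below both feeder arrays. Tubb3, neuronal beta-tubulin, read 1089, 2419.7 and 923 against 898 and 999 (0.50 ± 0.49, adjusted p = 0.741).

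Neural lists were highest on replicate 8 and, by a smaller margin, above the feeder mean on replicate 4. The median of the neuronal list, taken against the feeder mean, was 1.49 on replicate 8, 0.27 on replicate 4 and -0.01 on replicate 12. That of the neural progenitor list was 1.42, 0.36 and -0.08 in the same order. The 8 neural progenitor markers measured summed to 7720.5 on replicate 8, to 1499.6 and 672 on replicates 4 and 12 and to 788 and 586 in feeder cells. Fabp7 (4699.7) and Sox2 (2106) made up most of the sum on replicate 8. Without 4+11 day replicate 12, the neural progenitor list had 3 genes higher and the neuronal list 2, and a fit that blocks on the fluidics run, which takes up that array, gave 7 and 11.

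Macrophage genes were lowest on replicate 8 among the 3 differentiated arrays. The list's median was 1.57, the highest of all lists, and yet 0 of its 48 genes were called by limma. At an unadjusted p below 0.05, 18 were higher and 1 lower, beside 15.8% of all genes tested in either direction. Blocking on the fluidics run gave 5 higher and 1 lower, and only the 8 arrays of this scan session gave 4 higher and 1 lower. Both fits hold the same 8 arrays. Tyrobp, a signalling adaptor of myeloid cells, read 878, 126 and 1396 against 53.3 and 36, a difference of 3.41 ± 1.44 (adjusted p = 0.288). Its call was made under both, at 2.73 (adjusted p = 0.0402) when blocking and at 3.60 (adjusted p = 0.0437) for the 8 arrays. The complement gene C1qb read 1093, 157 and 2046 against 67.7 and 29.7, and the macrophage growth factor receptor gene Csf1r 1001, 98 and 1182 against 48.5 and 56.6. Every differentiated array was above both feeder arrays for these 3, and replicate 8 was the lowest of the differentiated arrays. The 5 defining macrophage markers summed to 3236, 473 and 5031 against 281 and 205. The median of the list was 2.16 on replicate 4, 0.20 on replicate 8 and 2.58 on replicate 12. Without replicate 8, 7 macrophage genes were higher, 12 cardiac and 8 epithelial. Replicate 8 lay in fluidics run 2 and replicate 12 alone in run 3 under the other wash protocol, and the part of run or protocol in this pattern was not tested.

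**Figure D4:**
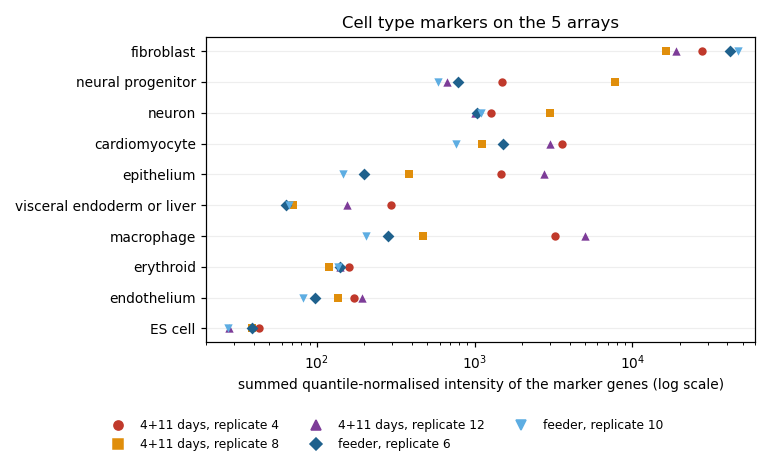
Summed quantile-normalised intensity (x axis, log scale) of the markers of each cell type on each of the 5 arrays. Bright genes weigh most in each sum. Replicate 8 is highest for neural progenitor and neuron markers, whereas replicates 4 and 12 are highest for macrophage, cardiomyocyte and epithelial markers, and both feeder arrays are highest for fibroblast markers.

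**Figure D5:**
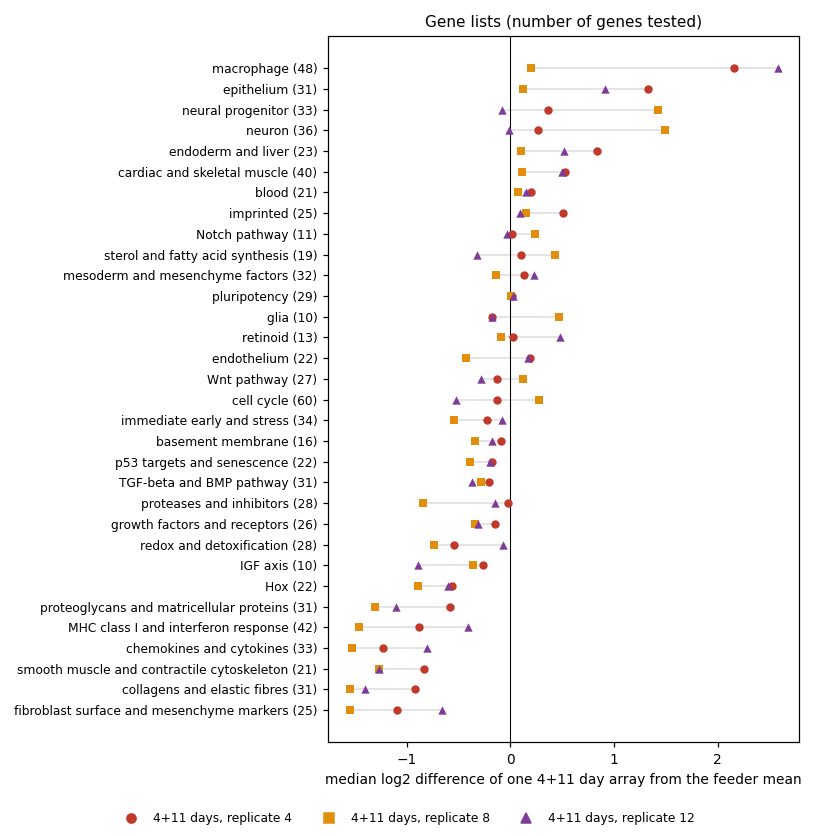
Median log2 difference of each 4+11 day array from the feeder mean (x axis) for each gene list, with the number of genes tested in brackets. The lists at the bottom, such as collagens and smooth muscle, lie below 0 on all 3 arrays, while the macrophage, neuron and neural progenitor lists spread by over 1 between arrays.

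Few or no genes were called on the proliferation, stress and other lists below. Over all genes tested 3.14% were called, so counts this small say little about these lists. Of 60 cell cycle genes 0 were called by limma (median -0.14), with 1 higher and 1 lower at an unadjusted p below 0.05. Cdk1 differed by -0.28 ± 0.30 and Mki67 by -0.17 ± 0.36. Of 22 p53 target and senescence genes 0 were called by limma (1 higher and 5 lower at an unadjusted p below 0.05, median -0.23), and the cell cycle inhibitor Cdkn1a read 613, 562 and 813 against 748 and 747. Of 25 imprinted genes 0 were called by limma (6 higher and 2 lower at an unadjusted p below 0.05, median 0.15). Dlk1 differed by 0.75 ± 0.52 and Peg3 by 0.87 ± 0.36, both uncalled, and both were high in each group. Of 34 immediate early and stress genes 1 was higher (Dusp6) and 1 lower (Trib3, a pseudokinase induced by stress, -2.33 ± 0.39, adjusted p = 0.012), and both calls were lost without feeder replicate 6 and without feeder replicate 10. At an unadjusted limma p below 0.05, 1 of the 34 was higher and 7 were lower. By limma 0 of 19 sterol synthesis genes and 0 of 11 Notch genes were called (1 and 2 higher at an unadjusted p below 0.05). Of 13 retinoid genes 1 was lower, the receptor Rarg (-1.65 ± 0.32, adjusted p = 0.0228), a call lost without feeder replicate 6 or 10. Over all genes tested, 15.8% had an unadjusted p below 0.05.

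Xist, the non-coding RNA of the inactive X chromosome, was at 10.2, 2.19 and 6.83 in 4+11 day cells and at 188 and 173 in feeder cells (-3.75 ± 0.41, adjusted p = 0.00142), and kept its call without each array in turn. It stood at 42.4 ± 8.26 in undifferentiated cells, which had been grown on feeder cells. R1 is a male line. Of the 73 named genes that were called, 21 kept the call in each of the 5 fits that left out 1 array. All 21 were lower in 4+11 day cells, among them Cxcl5, Ltbp2, Ptx3, Mfap5, Thbs2, Bgn, Lama4, Myh11 and Hoxa7. No probe set called here was called in the opposite direction in any of the alternatives run.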

How the data were processed

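Each of 11 RNA samples was hybridised to 1 array. The authors deposited linear probe set intensities, with 1 value per probe set and array. How probes were summarised is not given in these sources. A single gene symbol was annotated for 10833 of 12422 non-control probe sets. Intensities were quantile normalised over all 11 arrays, and log2(intensity + 8) was used, where 8 is the 20th percentile of deposited values. Probe sets above 33.35 (40th percentile) on at least 2 arrays were kept. Genes such as Hoxa7, Hoxd11, Meox2, Myh11 and C1qtnf3 passed only through the feeder arrays, so list counts and medians partly follow from this filter. The 4 groups were fitted with limma 3.58.1 in R 4.3.3 (lmFit, eBayes; two-sided; Benjamini-Hochberg), with 7 residual degrees of freedom, and the procedure was tested on simulated data. Genes were represented by their brightest probe set. Array number limits precision. Named genes were the 15 largest rises and 15 largest falls among called genes without overlap, the 4 largest called members (or fewer) per list, and a fixed marker set. Other genes stand as examples chosen after their values were seen. Members, lists and tests were chosen with earlier results of these data known. Alternatives changed the scaling, pseudocount, filter, arrays, batch term, variance prior and replicates.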

Additional observations from a re-analysis of the deposited data

How the results depend on the processing

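With all arrays, 101 probe sets were higher and 161 lower. As deposited, 67 were higher and 198 lower; scaled to a common trimmed mean, 159 were higher. With the pseudocount at the 40th percentile 242 were lower. With only the 8 arrays of the same scan session 345 were higher and 455 lower, of which 93 and 155 were among the calls with all arrays. With only the 5 arrays of the 2 groups 96 were higher and 194 lower, and 57 and 123 of these were among those calls. Among named genes 14 then lost their call (adjusted p of 0.0627 to 0.113) and 2 gained one (Cxcl1 and Prrx1). The 14 were Lyl1, Myh7, Myl7, Krt8, Krt18, Cd24a, Ckb, Thy1, Postn, Ccl7, Actg2, Rarg, H2-K1 and Sod3. With the fluidics run as a block, on the 8 arrays of that scan session, it was 272 and 344, with 4+11 day replicate 12 taken up by the run term. Leaving out each array in turn gave 6 to 118 higher and 41 to 140 lower. The share of calls that were higher was 38.5% with all arrays and 12.8% to 46.1% over these alternatives and leave-one-out fits. The cause of these shifts was not tested. Of 73 named genes called, 45 were called in all 11 alternatives that kept every array. Among named genes, sign changes occurred only in those not called. Nes was -0.07 as deposited and Mki67 was 0.06 with the run as a block. Leaving out single arrays moved Nes from -0.34 to 0.35, Th from -0.42 to 0.18, Pou5f1 from -0.11 to 0.24, Nanog from -0.18 to 0.29, Actc1 from -0.27 to 0.84, Afp from -0.23 to 0.82, Fn1 from -0.40 to 0.10, Dcn from -0.45 to 0.09, Igf2 from -0.02 to 0.42, Cdk1 from -0.61 to 0.05 and Mki67 from -0.61 to 0.26. No paired analysis was possible because the groups share no replicate number (4, 8 and 12 against 6 and 10), so the fluidics run, which 2 arrays of each group share, served as the block. With 2 feeder arrays, a small or variable difference can be missed, and the dimmest probe sets have no order.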

Other observations

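These genes outside the lists were chosen after their values were seen and are given as values only, with limma's adjusted p. Gas5, a non-coding RNA that hosts small nucleolar RNAs and accumulates in growth-arrested cells, read 188, 154 and 185 on 4+11 day replicates 4, 8 and 12 and 2117 and 2591 on feeder replicates 6 and 10. Its difference was -3.69 ± 0.41 on the log2 scale (adjusted p = 0.00142), and the call was kept without each array in turn. Nfix, a member of the nuclear factor I family of transcription factors, read 123, 112 and 101 against 583 and 650.4 (-2.38 ± 0.24, adjusted p = 0.000881) and kept its call in the same fits. Asns, asparagine synthetase, read 1041, 888 and 532 against 2026 and 2152 (-1.39 ± 0.30, adjusted p = 0.0355). Atf5, a transcription factor, read 233, 146 and 259.8 against 1008 and 1054 (-2.27 ± 0.40, adjusted p = 0.0143). Pck2, the mitochondrial PEP carboxykinase, differed by -1.95 ± 0.40 (adjusted p = 0.032). Leaving out either feeder array ended the calls of Asns, Atf5 and Pck2. Pck2 also lost its call without any single 4+11 day array, and Asns without 4+11 day replicate 8 or 12.

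Ybx1, an RNA and DNA binding protein, read 9460.0, 10964 and 9532 against 2811 and 1930.3 (2.09 ± 0.22, adjusted p = 0.00113), and kept its call without each array in turn. It has many processed copies in the genome, which its probes could also detect. The de novo DNA methyltransferase Dnmt3a was higher by 1.21 ± 0.27 (adjusted p = 0.0424) and the chromatin remodeller Chd7 by 2.19 ± 0.50 (adjusted p = 0.0476). Cxcr4, a chemokine receptor, read 58.1, 158 and 56.2 against 15 and 8.95 (2.17 ± 0.42, adjusted p = 0.0244). The calls of these last 3 ended without either feeder array. Chd7 also lost its call without any single 4+11 day array, and Dnmt3a without 4+11 day replicate 4 or 8.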
